A study of Arabidopsis thaliana with 28 samples.

Results

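The GH3 genes described here are 7 loci of Arabidopsis thaliana, chosen by name and not by any measured value: GH3.1 (AT2G14960), GH3.2 (AT4G37390), GH3.3 (AT2G23170), GH3.4 (AT1G59500), GH3.5 (AT4G27260), GH3.6 (AT5G54510) and GH3.17 (AT1G28130). All 7 were among the 36632 genes of the deposited count tables. Enough reads for testing came from 6 of the 7 in the genotype libraries and from the same number in the libraries of drug-treated plants; GH3.4 was left out of both by the filter on low counts. RNA was sequenced in 28 libraries of seedlings sampled 12 days after germination, following 4 days at 4 °C and growth in long days at about 21 °C. The mutant groups were h2a.z-5, a line that combines a frameshift insertion in HTA8 with the T-DNA alleles SALK_054814 and SALK_017235, hda6-1 (SALK_201895C), hda9-1 (SALK_007123), and h2a.z-5 combined with either of them (hda6-1 h2a.z-5, hda9-1 h2a.z-5). They were set against the wild type Col-0, and each of these 6 groups had 3 libraries from soil. A second experiment compared Col-0 given TSA (trichostatin A) with Col-0 given Mock, with 5 libraries each from MS medium with 1.0% sucrose; the labels give neither the dose nor the time of treatment. For the h2a.z-5 groups the series' design text gives nrp1-1 nrp2-2 instead; the genotype of the sample labels is used here. Each mutant allele is represented by a line of its own, so that other mutations carried by a line are not separated from the named ones.

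GH3 enzymes join amino acids to plant hormones. The members described here belong to the branch of the family that conjugates indole-3-acetic acid, the main auxin, and conjugation to aspartate or glutamate takes auxin out of the active pool. Several of these genes are classic early auxin response genes: auxin binds receptors of the TIR1/AFB family, the Aux/IAA repressors are degraded, and ARF transcription factors then activate GH3 genes, so that the enzymes act in negative feedback. HDA6 and HDA9 are histone deacetylases, TSA inhibits zinc-dependent histone deacetylases, and HTA8, HTA9 and HTA11 encode the histone variant H2A.Z.

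The 300 bases before the annotated gene start are shown for GH3.2, GH3.3, GH3.5 and GH3.6, because the results below turn mostly on these 4 genes and because the first 3 hold the core auxin response element. The sequences were read from RefSeq's TAIR10.1 assembly on the gene's own strand, 5′ to 3′, and capitals mark a match to TGTCTC, the core element bound by ARF proteins, or to CACGTG, the G-box. The windows are chr4:17579318-17579617 (plus strand) for GH3.2, chr2:9866563-9866862 (minus strand) for GH3.3, chr4:13653279-13653578 (plus strand) for GH3.5 and chr5:22133689-22133988 (minus strand) for GH3.6.
GH3.2: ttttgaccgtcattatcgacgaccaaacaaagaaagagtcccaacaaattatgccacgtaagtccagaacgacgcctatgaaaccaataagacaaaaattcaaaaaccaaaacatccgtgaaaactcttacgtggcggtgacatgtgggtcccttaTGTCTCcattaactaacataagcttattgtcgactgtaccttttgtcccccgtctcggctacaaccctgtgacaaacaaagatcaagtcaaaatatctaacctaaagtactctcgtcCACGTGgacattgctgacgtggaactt
GH3.3: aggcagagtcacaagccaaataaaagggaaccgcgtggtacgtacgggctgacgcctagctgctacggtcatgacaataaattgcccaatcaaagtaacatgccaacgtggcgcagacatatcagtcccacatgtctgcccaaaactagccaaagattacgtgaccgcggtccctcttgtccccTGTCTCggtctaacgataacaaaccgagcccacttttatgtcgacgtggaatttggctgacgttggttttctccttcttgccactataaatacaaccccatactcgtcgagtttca
GH3.5: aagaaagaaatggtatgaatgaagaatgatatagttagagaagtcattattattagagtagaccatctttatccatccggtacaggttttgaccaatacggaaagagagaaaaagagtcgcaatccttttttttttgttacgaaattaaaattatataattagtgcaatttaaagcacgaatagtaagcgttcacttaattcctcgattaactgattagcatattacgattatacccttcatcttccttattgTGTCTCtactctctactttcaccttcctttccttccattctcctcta
GH3.6: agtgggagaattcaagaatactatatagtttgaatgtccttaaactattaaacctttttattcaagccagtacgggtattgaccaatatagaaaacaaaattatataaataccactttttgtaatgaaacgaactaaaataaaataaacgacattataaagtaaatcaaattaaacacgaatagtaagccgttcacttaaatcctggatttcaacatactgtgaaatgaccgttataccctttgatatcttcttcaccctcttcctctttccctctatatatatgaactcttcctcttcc
The motif TGTCTC, its variant TGTCGG with high affinity for ARF proteins in vitro, and the G-box were searched on both strands, and no match shared bases with a match to another of them. TGTCTC stood 144 to 139 bases before the start of GH3.2, 116 to 111 bases before that of GH3.3 and 47 to 42 bases before that of GH3.5. GH3.2 also held CACGTG, 27 to 22 bases before its start. TGTCGG was in none of the 7 windows, and those of GH3.1, GH3.4, GH3.6 and GH3.17 held none of the 3 motifs. Among 27443 windows of the same length, 13.0% held TGTCTC, 4.91% held TGTCGG and 7.09% held CACGTG. A match in letters is a description of the sequence, not a measured binding site.

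The genes are similar enough in sequence for reads to be shared in places. GH3.5 (TAIR10.1 chromosome 4, 13653579 to 13656285) and GH3.6 (chromosome 5, 22130964 to 22133688) each have 3 exons and encode 612 residues, and their proteins were identical at 90.4% of aligned residues. Their coding sequences matched at 84.1% and shared no window of 50 bases. GH3.2 (chromosome 4, 17579618 to 17582022) and GH3.4 (chromosome 1, 21854493 to 21856614) matched at 90.9% of coding bases and shared 28 windows of 50 bases, so a short read from either cannot always be assigned. GH3.2 and GH3.3 (chromosome 2, 9863855 to 9866562) shared 7 such windows, and none of the other pairs shared any. GH3.17 (chromosome 1, 9825169 to 9828118) was the most distant member, with 56.1% to 58.5% of protein residues identical to the others. GH3.1 lies on chromosome 2 from 6451319 to 6453797. Neither the strand setting nor the rule for reads with several matches is known for the authors' counting.

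Gene counts totalled at least 32795474 and at most 39633678 in a genotype library, and at least 30257874 and at most 40395659 in a TSA or Mock library. The mutated genes were checked first. HTA11 averaged 1.64 ± 0.388 CPM (the count relative to the scaled library size) in h2a.z-5 and 61.4 ± 9.06 CPM in Col-0, each as mean and SD of 3 libraries. HTA9 and HTA8 kept more transcript: HTA9 averaged 52.6 ± 4.43 CPM in h2a.z-5 and 144 ± 9.19 CPM in Col-0, and HTA8 averaged 6.07 ± 0.897 CPM in h2a.z-5 and 16.9 ± 1.91 CPM in Col-0. HDA9 was reduced in both hda9-1 groups, with means of 1.62 ± 0.111 and, in the cross, 1.01 ± 0.367 CPM, against 13.9 ± 1.71 CPM in Col-0. HDA6 went against its labels: it averaged 129 ± 28.3 CPM in the libraries labelled hda6-1, 16.9 ± 1.07 CPM in those labelled hda6-1 h2a.z-5 and 16.7 ± 3.405 CPM in Col-0. Whether these counts come from the disrupted part of the transcript cannot be seen, so every direction given for hda6-1 or hda6-1 h2a.z-5 holds for the libraries so labelled. In the second experiment replicate 5 stood apart in both groups: summed clock genes were at 243 CPM in TSA and 272 CPM in Mock there, against 419 to 633 CPM in the other TSA libraries and 1079 to 1271 CPM in the other Mock libraries. Of genes called with a log2 difference beyond 2 in the other 8 libraries, 83.8% of 1290 higher and 75.3% of 1007 lower genes had the same sign between the libraries numbered 5. Some TSA results are therefore also given without them: the calls of the members counted below, values of GH3.3, GH3.5 and GH3.17, and counts of Aux/IAA, hydrolase and synthesis genes. The other TSA calls and fold changes are given only with them.

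In soil-grown seedlings GH3.5 was the member called in the most mutant groups. It rose to 2.80 times its Col-0 level in hda9-1, 2.63 times in libraries labelled hda6-1 h2a.z-5 and 3.79 times in hda9-1 h2a.z-5. All 15 mutant libraries lay above all 3 Col-0 libraries. No share of all genes is given for that count, and the mutant groups share their Col-0 libraries. GH3.17, which prefers glutamate as the amino acid it attaches, rose to 1.58 times in libraries labelled hda6-1 h2a.z-5 and 1.70 times in hda9-1 h2a.z-5. No member was called lower in any of the genotype comparisons. In bulk seedlings, fewer cells of a type and less RNA per cell cannot be told apart.

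GH3.5, also known as WES1, encodes an enzyme that accepts both auxin and salicylic acid. Its levels were 4.58, 3.14 and 4.19 CPM in h2a.z-5 and 4.03, 4.75 and 4.06 CPM in libraries labelled hda6-1. They were 8.29, 5.13 and 5.995 CPM in libraries labelled hda6-1 h2a.z-5. In the hda9-1 libraries they were 8.93, 5.79 and 5.91 CPM, in those of hda9-1 h2a.z-5 they were 12.3, 8.97 and 6.66 CPM, and in Col-0 they were 2.70, 1.73 and 2.91 CPM. No mutant library overlapped with Col-0, and replicate 2 was the lowest library in h2a.z-5, hda6-1 h2a.z-5, hda9-1 and Col-0. The log2 fold changes against Col-0 were 1.49 ± 0.27 in hda9-1 (SE; edgeR adjusted p = 0.0156), 1.40 ± 0.27 in libraries labelled hda6-1 h2a.z-5 (edgeR adjusted p = 0.00407) and 1.92 ± 0.27 in hda9-1 h2a.z-5 (edgeR adjusted p = 0.000836). In h2a.z-5 the value was 0.69 ± 0.27 (edgeR adjusted p = 0.38) and in libraries labelled hda6-1 it was 0.80 ± 0.27 (edgeR adjusted p = 0.203), neither past the threshold of 0.05. With replicate number as a block, the value in libraries labelled hda6-1 passed (0.82, edgeR adjusted p = 0.0356). The hda9-1 call did not hold when Col-0 replicate 1 (edgeR adjusted p = 0.0521), Col-0 replicate 2 (0.0815) or hda9-1 replicate 1 (0.057) was left out, or when hda9-1 and Col-0 were fitted alone (0.069). Summed salicylic acid genes, none at 0 in any library, ranged over 277 to 738 CPM in hda9-1 and 75.5 to 206 CPM in Col-0, while in hda9-1 h2a.z-5 they ranged over 55.7 to 191 CPM, and none of the 4 genes was called in either; their part in the GH3.5 result was not tested.

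**Figure D1:**
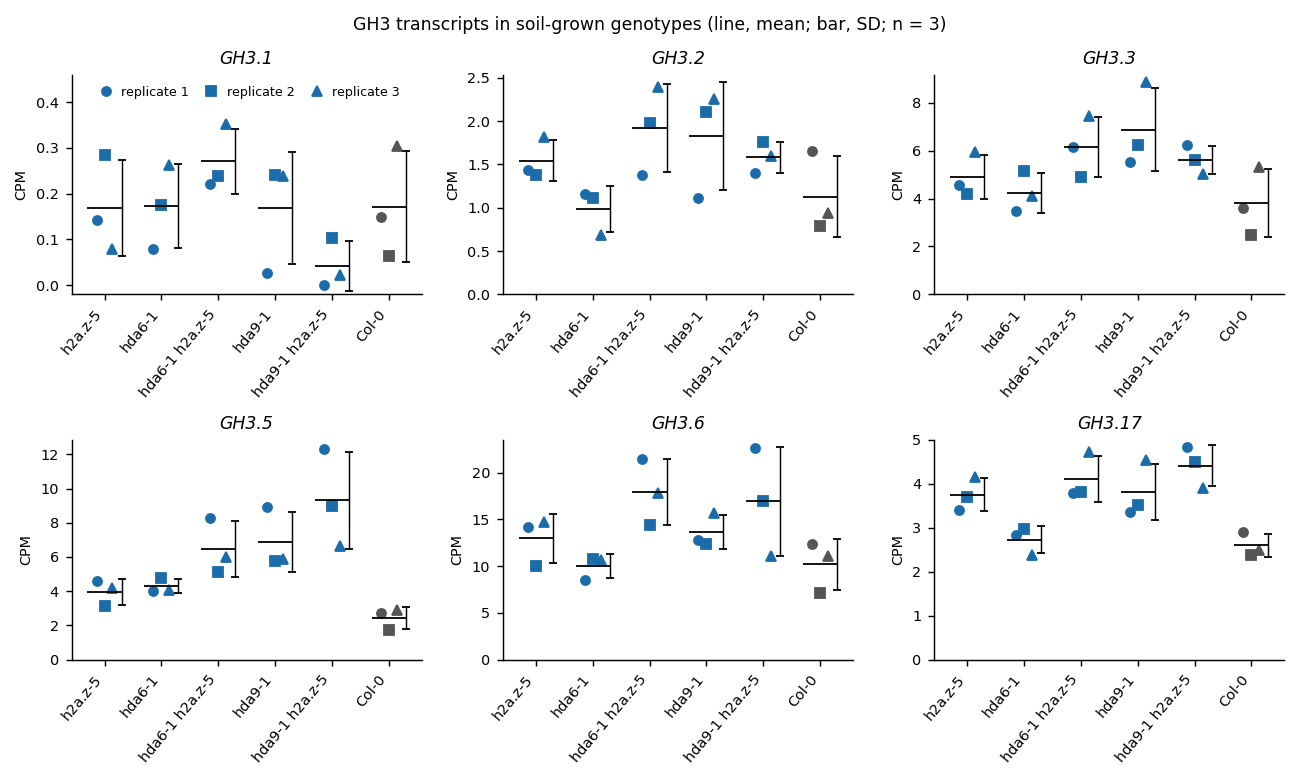
CPM (y axis) of the 6 detected members in each soil-grown library, by genotype (x axis); symbols give the replicate number, horizontal lines the mean and bars the SD of 3 libraries. All 15 mutant libraries lie above the 3 Col-0 libraries for GH3.5, a count given without a share of all genes, while GH3.1 stays below 0.353 CPM throughout.

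GH3.17 stood at 3.4, 3.71 and 4.16 CPM in h2a.z-5 and at 2.84, 2.96 and 2.39 CPM in libraries labelled hda6-1. In libraries labelled hda6-1 h2a.z-5 it stood at 3.80, 3.81 and 4.73 CPM. It stood at 3.37, 3.53 and 4.54 CPM in hda9-1, at 4.83, 4.49 and 3.91 CPM in hda9-1 h2a.z-5, and at 2.90, 2.39 and 2.50 CPM in Col-0. Every group but that labelled hda6-1 lay wholly above Col-0. The change was called in libraries labelled hda6-1 h2a.z-5 (log2 0.66 ± 0.17, edgeR adjusted p = 0.0317) and in hda9-1 h2a.z-5 (0.76 ± 0.17, edgeR adjusted p = 0.0183). It was not called in h2a.z-5 (0.53 ± 0.17, edgeR adjusted p = 0.244) or in hda9-1 (0.55 ± 0.17, edgeR adjusted p = 0.109), and with replicate number as a block hda9-1 passed (edgeR adjusted p = 0.0381). The call in libraries labelled hda6-1 h2a.z-5 was lost without Col-0 replicate 2 or 3 or hda6-1 h2a.z-5 replicate 1 or 3 (edgeR adjusted p of 0.12, 0.115, 0.0555 and 0.149), and that in hda9-1 h2a.z-5 without Col-0 replicate 2 or 3 or hda9-1 h2a.z-5 replicate 1 (0.0704, 0.0778 and 0.0571).

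GH3.6, known as DFL1 from a dominant mutant with short hypocotyls, had the highest level of the members in soil. It was at 14.2, 10 and 14.7 CPM in h2a.z-5, and at 8.50, 10.8 and 10.6 CPM in libraries labelled hda6-1. In libraries labelled hda6-1 h2a.z-5 it was at 21.4, 14.4 and 17.8 CPM. It was at 12.8, 12.4 and 15.7 CPM in hda9-1, at 22.7, 17.0 and 11.1 CPM in hda9-1 h2a.z-5, and at 12.3, 7.14 and 11.1 CPM in Col-0. Libraries labelled hda6-1 h2a.z-5 and those of hda9-1 lay above Col-0 without overlap, and the log2 fold changes of 0.81 ± 0.26 and 0.42 ± 0.25 did not pass (edgeR adjusted p = 0.0777 and 0.438). In hda9-1 h2a.z-5, whose replicate 3 fell among the Col-0 values, the log2 fold change was 0.73 ± 0.26 (edgeR adjusted p = 0.104). Without that library it was 0.97 (edgeR adjusted p = 0.0378), and with replicate number as a block GH3.6 passed in both crosses (0.0236 with hda6-1, 0.0271 with hda9-1). DESeq2 also called it in the cross with hda6-1 (adjusted p = 0.0352). Replicate 3 of hda9-1 h2a.z-5 was also the lowest of that group in summed photosynthesis genes (38500 CPM, against up to 66160 CPM) and in PHO1 (7.66 CPM, against up to 19.9 CPM), a phosphate exporter gene that gave most of the summed root markers in soil. The part of this in the GH3.6 values was not tested. RHD6 and EXPA7, 2 of the 8 root markers, were at 0 in all soil libraries.

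GH3.3, which acts with GH3.5 and GH3.6 in adventitious rooting, was at 4.58, 4.17 and 5.93 CPM in h2a.z-5, and at 3.47, 5.14 and 4.12 CPM in libraries labelled hda6-1. It was at 6.14, 4.89 and 7.43 CPM in libraries labelled hda6-1 h2a.z-5. It was at 5.54, 6.25 and 8.86 CPM in hda9-1, at 6.23, 5.60 and 5.04 CPM in hda9-1 h2a.z-5, and at 3.62, 2.48 and 5.31 CPM in Col-0. Only the hda9-1 libraries cleared all Col-0 libraries, with a log2 fold change of 0.85 ± 0.26 that did not pass (edgeR adjusted p = 0.101); it passed by DESeq2 (adjusted p = 0.0364) and in the fit blocked on replicate number (0.0159). The block also gave GH3.3 a call in libraries labelled hda6-1 h2a.z-5 (0.0428). GH3.2, known as YDK1 from another dominant mutant with short hypocotyls, was lower, at 0.682 to 2.40 CPM over the 15 mutant libraries and at 1.66, 0.786 and 0.936 CPM in Col-0. Its log2 fold changes against Col-0 ran from -0.20 in libraries labelled hda6-1 to 0.76 in those labelled hda6-1 h2a.z-5, and its groups overlapped with Col-0 throughout.

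GH3.1 and GH3.4 were at or near the limit of detection in soil. GH3.1 had 0 to 15 counts in the mutant libraries and 6, 2 and 12 counts in Col-0. In hda9-1 h2a.z-5 its counts were 0, 4 and 1, or 5 in all against 20 in Col-0, and the log2 fold change of -2.04 ± 0.91 did not pass (edgeR adjusted p = 0.195). GH3.4 had 0 counts in each of the 18 genotype libraries, which allows a level of up to 0.0268 CPM in Col-0 (3 counts over the group, counting error only).

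Counts of called members can be read against all 20771 genes tested in soil. In h2a.z-5 0 of 6 members passed by edgeR, where 0.910% of genes were called in either direction; by unadjusted p under 0.05, 2 did. GH3.5 and GH3.17 did not overlap with Col-0 there and were higher, as 7.80% of genes were. In libraries labelled hda6-1 0 of 6 passed (all genes, 3.05%; 1 by unadjusted p under 0.05), and GH3.5 alone lay above Col-0 without overlap, as 9.55% of genes did. DESeq2 called 0 members in each of these 2 comparisons as well. In hda9-1 1 of 6 was called higher, against 0.790% of genes, and 4 lay above Col-0 without overlap, against 11.9%. In libraries labelled hda6-1 h2a.z-5 2 of 6 were called higher, against 4.79% of genes, and 3 did not overlap, against 13.3%. In hda9-1 h2a.z-5 2 of 6 were called higher, against 2.68%, and 2 did not overlap, against 10.6%. Members are not independent draws, and the 5 comparisons share their Col-0 libraries.

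**Figure D2:**
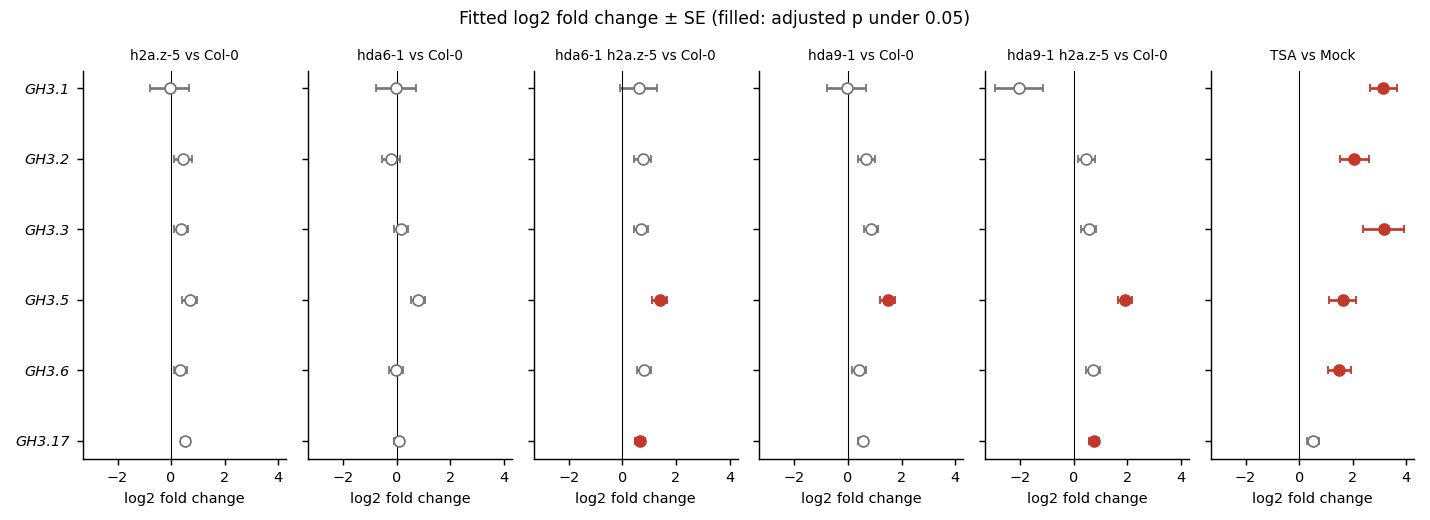
Log2 fold change of each member (x axis, point, with its SE as bar) for 5 mutant groups over Col-0 and for TSA over Mock; filled points have an edgeR adjusted p under 0.05. GH3.5 is filled in 3 of the 5 mutant panels. In the TSA panel 5 of 6 members are filled, but GH3.1 entered that test through its TSA libraries alone. Without GH3.1 it is 4 of 5, where 18.5% of all genes tested were called higher.

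Each cross was also set against the groups labelled as its parents. Since HDA6 was not reduced in either set of libraries labelled with hda6-1, the comparisons with that label are comparisons of libraries and not of HDA6 levels. GH3.5 was higher in hda9-1 h2a.z-5 than in h2a.z-5, by 1.23 ± 0.27 on the log2 scale (edgeR adjusted p = 0.0436). It was the sole member called there, where 0.279% of all genes were called higher, and the call was lost in 5 of 6 fits that each left out a library and with only these 2 groups fitted (edgeR adjusted p up to 0.373). Between hda9-1 h2a.z-5 and hda9-1 GH3.5 differed by 0.44 ± 0.26 (edgeR adjusted p = 0.585), and the libraries overlapped; no member was called there (0.944% of genes; 1 member by unadjusted p under 0.05). No member was called between libraries labelled hda6-1 h2a.z-5 and those of h2a.z-5 (2.02% of genes; 1 by unadjusted p) or those labelled hda6-1 (2.26%; 4 by unadjusted p), and DESeq2 called 0 in these comparisons as well. In the last comparison GH3.2, GH3.5, GH3.6 and GH3.17 did not overlap and were higher in the cross, as 8.10% of genes were, and GH3.6 (0.84 ± 0.26, edgeR adjusted p = 0.132) passed with replicate number as a block (0.0489). The interaction term, the departure of the cross from the sum of its parents' log2 changes, was -0.26 ± 0.37 for GH3.5 with hda9-1 and -0.10 ± 0.38 with hda6-1. No member passed either interaction test (all edgeR adjusted p of 1; 0.0337% and 0.0530% of genes called; 0 members by unadjusted p under 0.05 and 0 by DESeq2), and these standard errors leave room for departures in either direction.

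In TSA most members were called. GH3.1, GH3.2, GH3.3, GH3.5 and GH3.6 rose to between 2.82 and 8.87 times their Mock level, and GH3.17 stood at 1.43 times. Within each of the 5 replicate numbers, each of the 6 tested members was higher in TSA than in Mock. The largest fitted changes belonged to GH3.3 and GH3.1, at 8.87 and 8.83 times, and GH3.1 entered the test through its TSA libraries alone.

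GH3.3 was at 102.6, 105.9, 146, 92.1 and 225 CPM in TSA and at 4.64, 7.57, 5.46, 4.15 and 53.8 CPM in Mock. Mock replicate 5 was far above the other Mock libraries but below every TSA library. The log2 fold change was 3.15 ± 0.76 (edgeR adjusted p = 0.00849), and without both libraries numbered 5 it was 4.36 ± 0.25. GH3.1 was at 1.71, 0.381, 2.19, 2.44 and 2.01 CPM in TSA and at 0.0886, 0.172, 0.227, 0.195 and 0.282 CPM in Mock. These groups did not overlap, and the log2 fold change was 3.14 ± 0.50 (edgeR adjusted p = 0.000927); GH3.1 passed the filter on low counts through its TSA libraries. GH3.2 was at 7.56, 10.12, 16.5, 7.86 and 29.7 CPM in TSA and at 1.12, 3.44, 3.81, 1.78 and 7.09 CPM in Mock, again without overlap. Its log2 fold change was 2.05 ± 0.54 (edgeR adjusted p = 0.0127).

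GH3.5 was at 317, 234, 202, 154 and 495 CPM in TSA and at 35.9, 112, 77.4, 33.4 and 195 CPM in Mock. The groups overlapped through Mock replicate 5, and the log2 fold change was 1.63 ± 0.51 (edgeR adjusted p = 0.0286). That call was lost without Mock replicate 1, 3 or 4 or TSA replicate 1 or 5 (edgeR adjusted p of 0.0618, 0.06, 0.057, 0.0547 and 0.0522), and was kept at 1.81 without both libraries numbered 5. GH3.6 was at 167, 173, 127, 110 and 192 CPM in TSA and at 25.5, 63.1, 32.0, 30.3 and 122 CPM in Mock, which gave 1.50 ± 0.42 as log2 fold change (edgeR adjusted p = 0.018). GH3.17 was at 40.7, 47.9, 48.3, 36.5 and 50.5 CPM in TSA and at 26.5, 34.4, 19.5, 28.02 and 47.9 CPM in Mock. Its log2 fold change of 0.52 ± 0.23 did not pass (edgeR adjusted p = 0.103), but did without both libraries numbered 5 (0.68, 0.00879), when Mock replicate 5 was left out (0.00992) and when replicate number was a block (0.0415). GH3.4 had 1 count in each of TSA replicates 3 and 4 and none in the other TSA libraries or in Mock, so no fold is given.

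**Figure D3:**
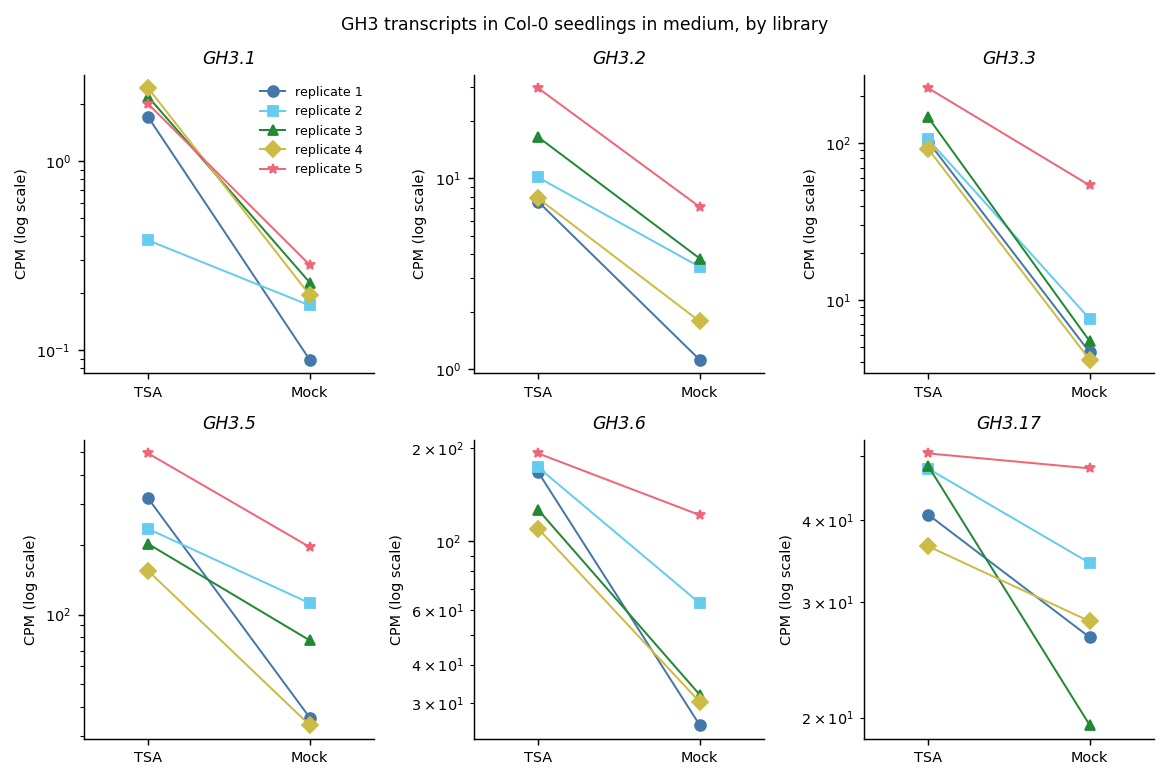
CPM on a log scale (y axis) of the 6 tested members in the 5 TSA libraries (left) and the 5 Mock libraries (right), with lines joining libraries of the same replicate number. All lines run downward to Mock, and replicate 5 is the highest Mock library in each panel, at 53.8 CPM for GH3.3.

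GH3.1 entered the test through its TSA libraries alone and is left out of the count that follows. Of the 5 members that their Mock libraries alone would have let through the filter, 4 were called higher in TSA, where 18.5% of the 20201 genes tested were, and 2 lay above Mock without overlap, as 13.3% of genes did. Without both libraries numbered 5, all 5 of these members were called. In that fit 10959 genes of all were called in either direction, against 7115 with the libraries numbered 5, so the members' calls are not set against a share there. Markers of organs and stress were read beside these results. Of 8 root markers, none at 0 in any library, 7 were tested: PHO1 was lower (23.1 ± 1.61 CPM in TSA and 79.1 ± 49.9 CPM in Mock, log2 -1.78, edgeR adjusted p = 0.0112), SHV2 was higher (1.47, edgeR adjusted p = 0.0373), and the other 5 had positive values that did not pass. Each of these 5 had its highest value in TSA replicate 5. In replicates 1 to 4 CASP1 and CASP2 were lower in TSA than in Mock. CASP1 was at 3.75 to 4.46 CPM in those TSA libraries and 4.75 to 8.23 CPM in those Mock libraries, but at 20.9 CPM in TSA replicate 5. The summed root markers, most of which was PHO1 in all libraries but TSA replicate 5, were at 29.4 to 38.6 CPM in TSA replicates 1 to 4 and 114 CPM in TSA replicate 5, against 73.8 to 145 CPM in Mock replicates 1 to 4 and 27.2 CPM in Mock replicate 5. Photosynthesis genes, none at 0, summed to 41290 to 90230 CPM in TSA and 36910 to 57140 CPM in Mock, but 4 of the 6 had negative log2 fold changes and none passed.

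Of 8 jasmonate and wound genes, none at 0, LOX2 (2.42, edgeR adjusted p = 0.0232) and VSP2 (2.77, 0.0222) were called higher in the fit that includes the libraries numbered 5. The list summed to 1550 to 2953 CPM in TSA replicates 1 to 4 and 1477 CPM in TSA replicate 5, against 209 to 619 CPM in Mock replicates 1 to 4 and 2333 CPM in Mock replicate 5. Of 4 salicylic acid genes, none at 0, 3 were called higher, and the list summed to 70.6 to 420 CPM in TSA and 32.0 to 78.4 CPM in Mock. The part of these values in the GH3 results was not tested.

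Levels can be compared between members only per length, here as CPM per kb of coding sequence. Reads from untranslated exon parts may be counted too, and these parts differ in length. Exons cover 2737 bases in GH3.17, of which 1830 are coding in its longest form, against 2357 and 1839 in GH3.5. The order of members with close levels can therefore depend on the length used. In Col-0 on soil the order was GH3.6 (5.55 ± 1.48), GH3.3 (2.13 ± 0.795), GH3.17 (1.42 ± 0.146), GH3.5 (1.33 ± 0.342), GH3.2 (0.622 ± 0.258) and GH3.1 (0.0968 ± 0.0688; SD, n = 3). GH3.3, GH3.17 and GH3.5 overlapped in their libraries, so their order is within the spread. GH3.6 stayed first in every mutant group, and GH3.5 stood second in libraries labelled hda6-1 h2a.z-5 (3.52 ± 0.889) and in hda9-1 h2a.z-5 (5.07 ± 1.55); with hda6-1 it overlapped with GH3.3 (3.44 ± 0.711), so that their order is within the spread. In medium GH3.5 had the highest mean, at 152 ± 72.8 in TSA and 49.4 ± 36.4 in Mock (SD, n = 5). GH3.6 followed at 83.7 ± 18.7 in TSA and 29.6 ± 21.9 in Mock, and their ranges overlapped in both groups. GH3.3 came next in TSA (75.1 ± 30.5), but in Mock it stood at 8.46 ± 12.1, behind GH3.17 (17.1 ± 5.85). Soil and medium libraries were scaled separately and differ in growth conditions, so their levels are set side by side without a test.

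**Figure D4:**
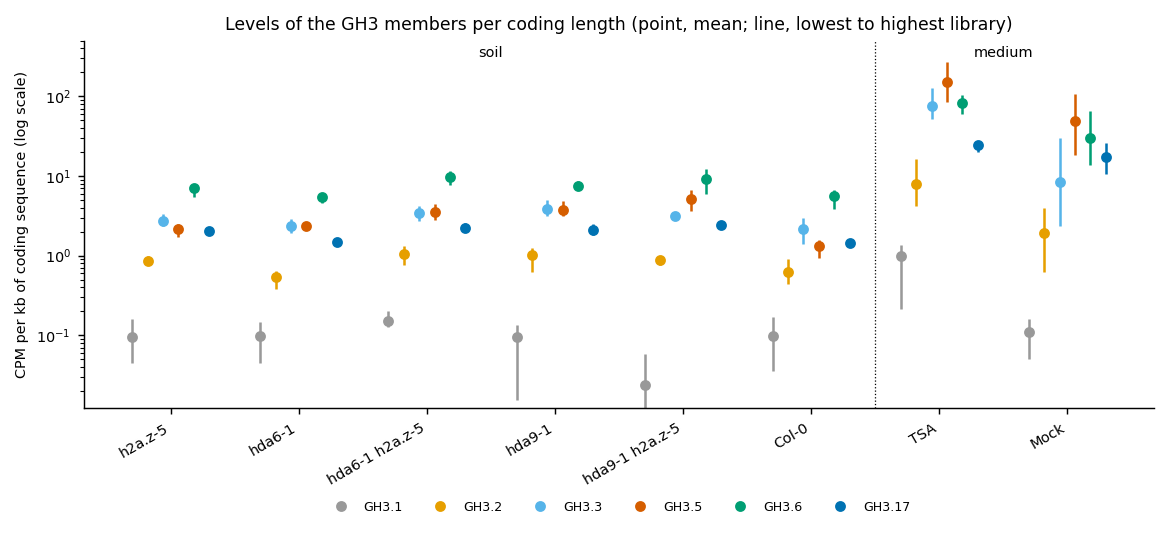
CPM per kb of coding sequence on a log scale (y axis) for 6 members in each group (x axis), as the mean (point) and the lowest and highest library (line); the line of GH3.1 in hda9-1 h2a.z-5 runs to 0 and is cut by the axis. GH3.6 is highest in every soil group and GH3.5 has the highest mean in TSA and Mock.

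The members varied together to different degrees. Over the 10 TSA and Mock libraries, log2(CPM + 0.5) of GH3.5 and GH3.6 correlated at r = 0.958, and after removal of group means at 0.901. Over the 18 genotype libraries the same pair gave 0.771, and 0.796 within groups. GH3.5 and GH3.17, both called in the crosses, correlated at 0.715 over the genotype libraries but at 0.125 within groups. GH3.1, whose counts in soil were few, ranged from -0.279 with GH3.5 to 0.256 with GH3.3. These are descriptions over libraries of the same experiment, in which libraries of the same replicate number tended to deviate together.

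Among 19406 genes tested in both experiments, the 2 most like each member over the 18 genotype libraries are given with their r over the 10 TSA and Mock libraries. They were picked for the highest r in the genotypes, so a lower r in the other experiment follows in part from that choice. No conclusion is drawn from it, and the r of GH3.1 rests on 0 to 15 counts per genotype library. For GH3.5 the nearest were AT5G23350 (r = 0.919 in the genotypes, -0.177 in TSA and Mock) and AT1G72820 (0.876 and 0.614). For GH3.6 they were KNAT2 (0.920 and -0.142), a homeobox gene of the shoot meristem, and ABCG14 (0.877 and -0.644), a cytokinin transporter gene. GH3.2 was nearest to another member, GH3.17 (0.798 and 0.777), and then to AT5G07380 (0.738 and 0.692). For GH3.3 they were AT1G17990 (0.868 and 0.400) and AT1G18020 (0.867 and 0.315), for GH3.17 AT5G35777 (0.845 and -0.484) and AT3G59190 (0.841 and -0.259), and for GH3.1 SURF1 (0.799 and 0.490) and AT3G03370 (0.786 and -0.835).

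Other genes of auxin metabolism and response were counted from lists of 12 other GH3 genes, 7 conjugate hydrolases, 5 genes of auxin oxidation, glucosylation or methylation, 14 synthesis genes, 6 receptors, 8 ARF genes, 12 Aux/IAA genes and 3 PIF genes. The ARF, Aux/IAA and PIF lists are selections, so their counts hold for the listed genes and not for whole families. In hda9-1 few of them moved with GH3.5. The receptor gene AFB5 was the sole receptor called, at 76.0 ± 3.47 CPM in hda9-1 and 51.8 ± 2.40 CPM in Col-0 (log2 0.55, edgeR adjusted p = 0.0272). GH3.9 was the sole call among the 8 other GH3 genes tested, and it fell, to 2.73 ± 0.434 CPM in hda9-1 against 5.21 ± 0.889 CPM in Col-0 (log2 -0.93, edgeR adjusted p = 0.0196), where 0.958% of all genes were called lower. GH3.9 was called higher in h2a.z-5 (9.55 ± 1.02 CPM), in libraries labelled hda6-1 (10.8 ± 2.14 CPM) and in those labelled hda6-1 h2a.z-5 (11.6 ± 1.60 CPM); these values were singled out after they were seen. No hydrolase, synthesis, ARF, Aux/IAA, PIF or oxidation gene was called in hda9-1. Leaving out some single libraries ended both the AFB5 and the GH3.9 call. With replicate number as a block 3 receptors were called, but the block also called far more of all genes in hda9-1 (counts in the last section).

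In hda9-1 h2a.z-5 auxin response genes of the Aux/IAA class were called as well. Of 12 tested, 4 were called higher, IAA29 among them, and 1 lower, where 2.68% and 3.21% of all genes were. The median log2 fold change was 0.46 where that of all genes was 0.03. IAA29 averaged 0.115 to 0.226 CPM in the other genotype groups and passed the filter on low counts mainly through hda9-1 h2a.z-5. Its call therefore lends that count and that median no weight. IAA1 was at 12.1 ± 7.47 CPM in hda9-1 h2a.z-5 and 3.33 ± 0.557 CPM in Col-0 (log2 1.86, edgeR adjusted p = 0.00439). IAA14 was at 14.8 ± 3.78 CPM in hda9-1 h2a.z-5 and 7.19 ± 1.05 CPM in Col-0 (1.04, edgeR adjusted p = 0.0103), and IAA29, whose Col-0 libraries were below the filter level, at 0.696 ± 0.312 CPM in hda9-1 h2a.z-5 and 0.115 ± 0.0296 CPM in Col-0 (2.56, edgeR adjusted p = 0.0309). The receptors AFB5 (0.49, edgeR adjusted p = 0.0221) and AFB3 (0.65, 0.0373) were higher, as 2 of 6. Leave-one-out fits called 2 to 4 Aux/IAA genes higher and 0 to 2 receptors. None of the hydrolase, synthesis, ARF, PIF, oxidation or other GH3 genes was called. With replicate number as a block 3 synthesis, 2 ARF and 2 other GH3 genes were called higher. The block also called far more of all genes here (counts in the last section), so these counts are not read as a result about the lists.

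In TSA the other auxin genes did not all move the way of the GH3 members. Of 10 Aux/IAA genes tested none was called higher and 4 were called lower, where 16.7% of all genes were called lower, and the median log2 fold change was -1.39 where that of all genes was -0.07. AXR3 (IAA17) averaged 14.6 ± 4.26 CPM in TSA and 67.3 ± 28.1 CPM in Mock (log2 -2.20, edgeR adjusted p = 0.000856). IAA14 averaged 3.55 ± 1.65 CPM in TSA and 18.2 ± 8.33 CPM in Mock (-2.35, edgeR adjusted p = 0.00207), and SHY2 (IAA3) 4.27 ± 4.95 CPM in TSA and 24.1 ± 11.9 CPM in Mock (-2.49, edgeR adjusted p = 0.0125). Without both libraries numbered 5 the lower Aux/IAA genes were 10, without TSA replicate 5 they were 11, with the block 9, and without the filter on low counts 7. The filter on low counts was applied anew where libraries were left out, so the number of Aux/IAA genes tested could differ from 10 there. More of all genes were called too without both libraries numbered 5. No share of all genes stands beside these counts, and they are not read as a result about the list. The 3 PIF genes had negative values, with PIF7 (-2.65, edgeR adjusted p = 2.27e-05) and PIL6 (-1.21, edgeR adjusted p = 0.00356) called; PIF proteins are light-regulated transcription factors that promote auxin synthesis in shade.

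Hydrolases, which free auxin from its amino acid conjugates and so act against GH3 enzymes, were called higher in TSA in 3 of 6 cases, where 18.5% of all genes were, with a median log2 fold change of 0.88 where that of all genes was -0.07. ILR1 averaged 47.2 ± 11.9 CPM in TSA and 13.0 ± 7.81 CPM in Mock (log2 1.86, edgeR adjusted p = 0.00227), ILL2 27.9 ± 3.36 CPM in TSA and 10.8 ± 0.702 CPM in Mock (1.37, edgeR adjusted p = 0.000132) and ILL1 38.6 ± 9.31 CPM in TSA and 20.4 ± 5.77 CPM in Mock (0.92, edgeR adjusted p = 0.0137). Without both libraries numbered 5, and likewise with the block, 5 hydrolases were called higher, with no share of all genes to set beside that count. Of the 7 other GH3 genes that their Mock libraries alone would have let through the filter, 2 were higher and 2 lower. DFL2, a GH3 gene that responds to light, averaged 16.8 ± 1.59 CPM in TSA and 68.6 ± 20.4 CPM in Mock (log2 -2.03, edgeR adjusted p = 0.000116), whereas AT1G48660, which entered the test through its TSA libraries alone, averaged 2.44 ± 1.28 CPM in TSA and 0.141 ± 0.0747 CPM in Mock (4.09, edgeR adjusted p = 0.000243). AT5G13370 was also higher (log2 1.05, edgeR adjusted p = 0.00461).

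Of the ARF genes 3 of 8 were higher in TSA: MP (ARF5; log2 1.68, edgeR adjusted p = 0.00429), ARF17 (1.40, 0.00213) and ARF16 (0.56, 0.0432). Of the 6 receptor genes 2 were called higher, AFB4 (0.63, edgeR adjusted p = 0.0175) and TIR1 (0.67, 0.0492). The counts for ARF and receptor genes stand beside 18.5% of all genes called higher, and are not read as a result about these lists. No synthesis gene of 9 tested was called (2 lower by DESeq2 and with the block, 5 lower without both libraries numbered 5, each without a share of all genes beside it). Of 3 oxidation, glucosylation or methylation genes tested, AT1G14120 was called lower (-1.13, edgeR adjusted p = 0.0467).

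**Figure D5:**
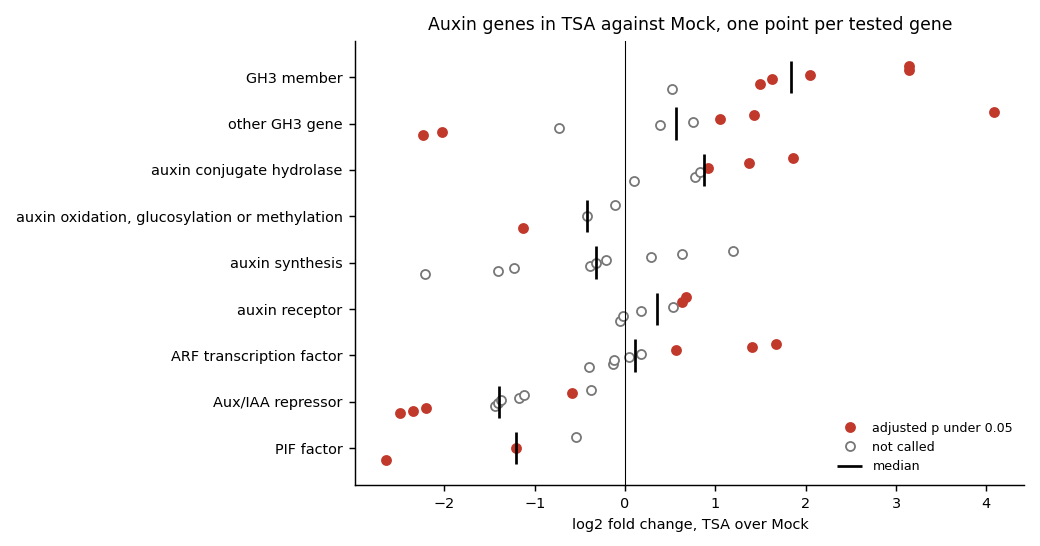
Log2 fold change in TSA over Mock (x axis) of each tested gene of the auxin lists (y axis), filled where the edgeR adjusted p is under 0.05, with the list's median as a black bar. The GH3 members and the conjugate hydrolases lie to the right of 0. All 10 tested Aux/IAA and all 3 PIF genes of the lists, which are selections from their families, lie to its left.

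The authors' deposited tables of their own comparisons list GH3.5 at log2 1.48 in hda9-1, 1.42 in hda6-1 h2a.z-5 and 1.93 in hda9-1 h2a.z-5, with adjusted p of 7.27e-05, 4.98e-05 and 1.55e-06. In the authors' deposited tables GH3.6 and GH3.17 also pass in hda6-1 h2a.z-5 (0.0244 and 0.0421), and GH3.17 has an adjusted p of 0.0745 in hda9-1 h2a.z-5. For TSA the authors' deposited table lists GH3.1, GH3.2, GH3.3, GH3.5 and GH3.6 with adjusted p of 1.08e-07, 0.000393, 1.3e-05, 0.00342 and 0.00159. GH3.17 has an adjusted p of 0.0785 there. For TSA the authors give 8031 of 19325 listed genes an adjusted p under 0.05, in either direction. The passing members are therefore not read as a result about the GH3 genes. In the genotypes such genes number 1056 of 17593 in hda9-1, 1193 of 17942 in hda6-1 h2a.z-5 and 707 of 17751 in hda9-1 h2a.z-5.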

How the data were processed

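The authors deposited raw gene counts in one table for the genotypes and another for TSA and Mock, and which tools made them is not given in the sources used here. Per the labels, the protocol text describes ChIP, and the submitters' processing notes name the TAIR10 build. The authors' deposited comparison tables give log2 fold changes and p-values (adjusted) per the file headers and were used as a side check. TE tables were not used.

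The test was edgeR's quasi-likelihood F test (edgeR 4.0.16, R 4.3.3; TMM scaling, filterByExpr with minimum count 10 and minimum total 15, two-sided, Benjamini-Hochberg adjustment over all 20771 or 20201 genes of a comparison, called under 0.05). The genotypes were fitted together on 18 libraries (12 residual degrees of freedom) and TSA and Mock on 10 (8 residual degrees of freedom); 12 comparisons were made. CPM are on the TMM-scaled library size, and standard errors derive from the F statistic. The design text calls the replicates independent biological replicates; no 2 libraries of a group agreed within sampling noise, and reads carry no molecular identifiers. Gene names, structures and promoters came from RefSeq TAIR10.1, in which all 7 members were found; the count tables carry no coordinates. The edgeR fits of hda9-1 against Col-0, of its interaction with h2a.z-5 and of TSA against Mock were tested on simulated data.

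Libraries with the same replicate number tended to deviate together. After removal of group means they correlated at 0.164 to 0.764 in 45 genotype pairs, against -0.677 to 0.351 (median -0.311) for different numbers. In 5 TSA and Mock pairs they correlated at 0.128 to 0.541, against -0.4795 to 0.36 (median 0.0526). The ranges overlapped in both experiments, and Mock replicates 1, 2 and 3 each correlated most with a TSA library of another number. The numbers were taken to pair the samples, less clearly so in TSA and Mock, and the main fits had no block for them. Fits with replicate number as a block are given as an alternative, and every other edgeR value comes from unpaired fits. The members and lists were chosen with earlier results of these data known. All 7 members are named; other genes are named when called in hda9-1, hda9-1 h2a.z-5 or TSA, at most 3 per list and comparison by smallest p, and for each tested member the 2 genes with the highest Pearson r. Alternatives were RLE scaling, no low-count filter, DESeq2 1.42.0, the replicate block, fitting the compared groups alone and leaving out libraries; those for the auxin lists were chosen after seeing the data.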

Additional observations from a re-analysis of the deposited data

Results flagged for a closer look

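GH3.3 in Mock had a library far from the others: replicate 5 was at 53.8 CPM, while the other 4 Mock libraries were at 4.15 to 7.57 CPM. The gap to the nearest library was 0.931 of the group's range, beyond Dixon's critical value for 5 samples. Of 13 groups of members examined in this way it was the sole one past that value. Chance alone gives about 1 in 20 for a single group, so 1 among 13 can arise by chance. Groups of different members come from the same libraries and are not independent.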

How the results depend on the processing

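Of 141 alternative values of called changes, 116 kept direction and call and 25 kept direction but lost the call; of 738 values of changes not called, 694 stayed so, 13 gained the call and 31 turned sign. The GH3.5 calls against Col-0 in both combined mutants held under every alternative run. With the replicate block the members called were 1 in hda6-1 (0 without the block), 3 in hda9-1 (1), 4 in hda6-1 h2a.z-5 (2) and 1 in hda6-1 h2a.z-5 against hda6-1 (0); apart from those calls and those of GH3.6 in hda9-1 h2a.z-5 and GH3.17 in TSA, it changed no member's call. DESeq2 called 2 members in hda9-1 (GH3.3 added) and 3 in hda6-1 h2a.z-5 (GH3.6 added), and no low-count filter left 1 in hda6-1 h2a.z-5. With only the groups compared, the counts were 0 in hda9-1, 1 in hda6-1 h2a.z-5, 1 in hda9-1 h2a.z-5 and 0 in hda9-1 h2a.z-5 against h2a.z-5. Leave-one-out counts ranged over 0 to 1 in hda9-1, 1 to 2 in hda6-1 h2a.z-5, 1 to 3 in hda9-1 h2a.z-5 and 0 to 1 in hda9-1 h2a.z-5 against h2a.z-5. The block called more of all genes in every genotype comparison (counts below), and for some settings no count over all genes is given. These member counts therefore describe how far the calls depend on the setting, and are not set against a share of all genes.

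None of the changes that turned sign was called. In hda6-1, GH3.1 came to 0.0038 with DESeq2 and GH3.6 to 0.0013 with the replicate block. Leave-one-out log2 values ranged over -0.62 to 0.61 for GH3.1 in h2a.z-5, -0.41 to 0.61 for GH3.1 in hda9-1, and in hda6-1 over -0.46 to 0.65 (GH3.1), -0.39 to 0.20 (GH3.2), -0.060 to 0.48 (GH3.3) and -0.22 to 0.14 (GH3.6). They ranged over -0.050 to 0.17 for GH3.2 in hda9-1 h2a.z-5 against h2a.z-5. For the interactions they ranged over -0.15 to 0.39 (GH3.3), -0.33 to 0.074 (GH3.5) and -0.053 to 0.12 (GH3.17) with hda6-1, and -0.29 to 0.18 (GH3.6) with hda9-1. The causes were not tested.

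With the replicate block the all-gene counts were 785 in h2a.z-5 (189 without it), 1005 in hda6-1 (634), 3392 in hda9-1 (363), 2988 in hda6-1 h2a.z-5 (1248), 4922 in hda9-1 h2a.z-5 (1224), 671 and 1049 in hda6-1 h2a.z-5 against h2a.z-5 and hda6-1 (420, 469), 1570 and 870 in hda9-1 h2a.z-5 against h2a.z-5 and hda9-1 (133, 196), and 18 and 14 in the interactions with hda6-1 and hda9-1 (11, 7). DESeq2 gave 374 in h2a.z-5, 1188 in hda9-1, 2038 in hda9-1 h2a.z-5, 557 and 420 against its parents, and 30 and 14 in the interactions. Fitting only the groups compared gave 61 in h2a.z-5, 53 in hda9-1, 82 in hda9-1 h2a.z-5, and 5 and 17 against its parents. No filter gave 213 in hda9-1 and 11 in its interaction. Depth limits GH3.1 in soil and GH3.4 throughout.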
